A study of Mus musculus with 14 samples.

Results

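The 31 interferon response genes described here were taken by name from the gene symbols of the heart RNA-seq count table. They are 31 of its 49315 genes, and all 31 passed the filter on low counts that left 15947 genes for testing. The groups were hearts at 68 weeks of age and hearts at 12 weeks of age, with 4 RNA-seq libraries each. Both ages came from male wild-type C57BL/6 mice fed standard chow, and each library was made from total RNA of pulverised heart tissue. The same study profiled the histone mark H3K27me3 by CUT&RUN, which cuts DNA where an antibody is bound, in hearts of both ages, with 2 libraries and 1 input library per age. The labels do not say that the libraries came from separate mice, and p-values then measure only how far these 8 libraries spread, which may be technical.

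Type I interferons bind a receptor made of IFNAR1 and IFNAR2, whose kinases JAK1 and TYK2 activate STAT proteins. STAT2 enters the factor ISGF3 together with IRF9, and ISGF3 binds the interferon-stimulated response element in the promoters of its target genes. Many targets encode antiviral proteins, and others encode sensors of viral nucleic acid, factors of the pathway itself and its inhibitors. Low levels of these mRNAs are present in most uninfected tissues.

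The response element was looked for as its core, GAAA, any 2 bases, then GAAA, on both strands of windows that run from 250 bases before to 50 bases after each RefSeq start (GRCm38.p6). Of the 31 genes, 22 had a window in the RefSeq table, and 14 of the 22 (63.6%) held the core. It stood in 3.44% of all 32851 windows of that length and in 3.99% of all 27025 genes with a window. The core is shown for the genes with an unadjusted p under 0.05 that hold it before the start, and for Isg15, added afterwards as a known example with 3 overlapping copies, because they show the letters that most of the matched members share. The last sequence is the 100 bases before the start of Oasl2, the member called lower at 68 weeks, whose window did not hold these letters. Sequences run 5′ to 3′ on the strand of the gene, with the cores in capitals. In Ifit3, Ifit3b, Gbp3 and Stat2 the core lies on the other strand and so reads TTTC, any 2 bases, TTTC.
Isg15: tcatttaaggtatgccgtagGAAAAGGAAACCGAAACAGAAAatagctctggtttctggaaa
Ifit3: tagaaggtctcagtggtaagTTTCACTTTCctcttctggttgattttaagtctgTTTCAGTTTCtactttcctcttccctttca
Ifit3b: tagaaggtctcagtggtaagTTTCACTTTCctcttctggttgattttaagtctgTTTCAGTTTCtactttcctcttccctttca
Gbp3: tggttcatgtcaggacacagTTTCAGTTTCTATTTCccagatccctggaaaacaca
Stat2: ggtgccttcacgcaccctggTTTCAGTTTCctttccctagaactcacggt
Oasl2: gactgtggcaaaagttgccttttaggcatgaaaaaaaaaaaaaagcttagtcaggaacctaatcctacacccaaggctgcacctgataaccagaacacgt
They come from chr4:156200855-156200916 (minus strand), chr19:34583353-34583436, chr19:34607749-34607832, chr3:142559979-142560034, chr10:128270256-128270305 and chr5:114896834-114896933 (plus strand). The stretches printed for Ifit3 and Ifit3b have the same letters, and their whole windows align with 94.5% identity over 274 columns. How reads that match both genes were counted is not given in the sources used here, and the values of Ifit3 and Ifit3b are uncertain. A core in a window is a description of its letters and does not show that a factor binds there.

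At 68 weeks, 1 of the 31 genes was lower and 0 were higher by edgeR at an adjusted p of 0.05, where 1.22% of all 15947 genes were called lower and 1.61% higher. The gene called was Oasl2. At an unadjusted p under 0.05, 11 of the 31 were lower and 0 higher, against 9.77% and 9.26% of all genes. Log2 fold changes, given as 68 minus 12 weeks with an approximate SE, were below 0 for 29 of the 31, against 52.1% of all genes. Their median was -0.30, from -0.83 for Ifi27 to 0.16 for Oas3, and the median over all genes was -0.0082. In 9 of the 31 every 68-week library stood below every 12-week library, as it did in 5.86% of all genes, and in 0 of the 31 the order was the other way, against 6.26% of all genes. In whole hearts, fewer cells of a type and less RNA per cell cannot be told apart.

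**Figure D1:**
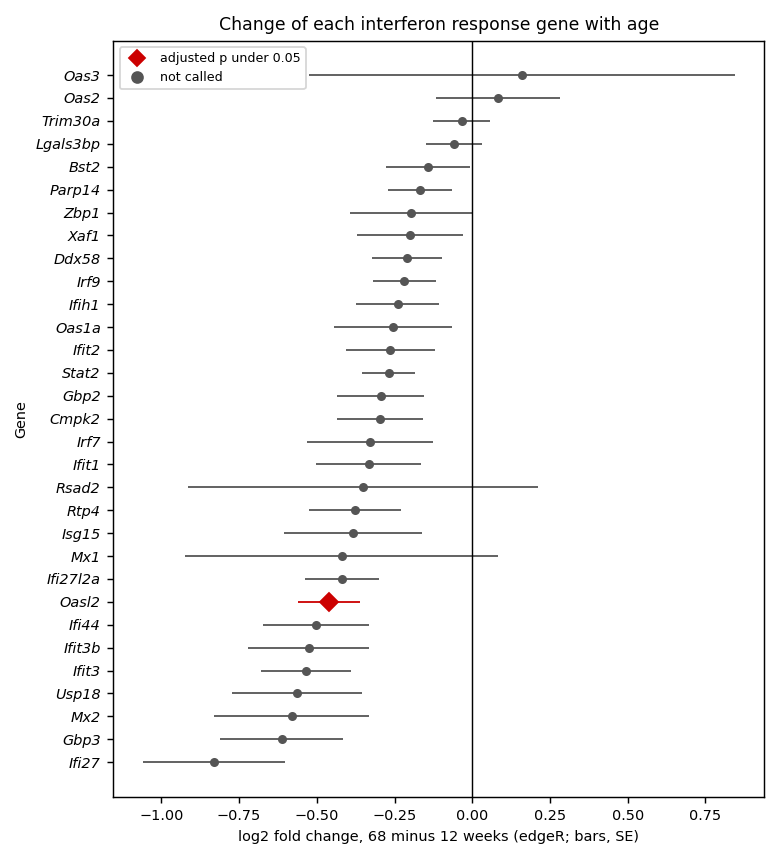
Log2 fold change of each of the 31 interferon response genes, 68 minus 12 weeks, with its SE from edgeR over 4 libraries per age. The red diamond is Oasl2 (-0.46), the gene called; 29 of the 31 points lie left of 0, and Oas3, Rsad2 and Mx1 have the widest bars.

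Values of single libraries are given in order of replicate number, as CPM, which are counts scaled to the TMM-normalized size of each library. The OAS genes encode synthetases that make 2′-5′ oligoadenylate and so activate RNase L, and the product of Oasl2 is by name an OAS-like protein. Oasl2 (chromosome 5, 114896936 to 114912234, mm10 by label) stood at 10.7, 9.05, 8.70 and 8.12 CPM at 68 weeks, against 14.3, 11.9, 11.97 and 12.1 CPM at 12 weeks. The ages did not overlap, and 12-week replicate 1 was the highest of the 8 libraries. Oasl2 averaged 9.14 ± 1.10 CPM at 68 weeks and 12.6 ± 1.19 CPM at 12 weeks (SD, n = 4 each), which is -0.46 ± 0.10 on the log2 scale (adjusted p = 0.0463, edgeR). It fell by 27.4%, and in 4 of 4 libraries at 68 weeks it was below the lowest at 12 weeks. The call rested close to the threshold. Over the 16 alternatives that kept several libraries of each age, the log2 fold change ran from -0.54 to -0.39 and the adjusted p by edgeR or DESeq2 from 0.005 to 0.433, with 6 of 16 keeping the call. Of the 8 fits that each left out 1 library only that without 68-week replicate 1 kept it (adjusted p = 0.0284). Each of the other 7 fits lost it, with an adjusted p of up to 0.122.

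The other OAS genes were not called. Oas3 stood at 0.629, 3.68, 0.548 and 0.506 CPM at 68 weeks, against 0.795, 1.44, 1.98 and 0.578 CPM at 12 weeks. At 68 weeks replicate 2 was more than 5 times as high as each of the other libraries, and without it the log2 fold change of Oas3 was -1.07 (adjusted p = 0.26, edgeR) in place of 0.16 ± 0.68. Oas2 (0.082 ± 0.20) was also highest in 68-week replicate 2, at 6.42 CPM against 3.51 to 4.64 CPM in the others at 68 weeks and 3.57 to 5.27 CPM at 12 weeks. Oas1a was at or below 2.27 CPM in all 8 libraries, with a log2 fold change of -0.25 ± 0.19.

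IFIT proteins bind foreign RNA and block its translation, and ISG15 is a ubiquitin-like protein that is attached to other proteins. All 5 genes of this group had log2 fold changes below 0, with a median of -0.38, and 0 were called. Ifit3 (chromosome 19, 34583531 to 34588731) stood at 5.86, 6.42, 5.45 and 5.18 CPM at 68 weeks, against 10.6, 7.72, 6.46 and 8.27 CPM at 12 weeks. Its ages did not overlap, although 68-week replicate 2 and 12-week replicate 3 were almost level, and its log2 fold change was -0.54 ± 0.14 (adjusted p = 0.0845, edgeR). DESeq2 called it lower at 68 weeks (adjusted p = 0.0259). Ifit3b stood at 2.38, 2.52, 2.19 and 1.34 CPM at 68 weeks, against 3.39, 2.76, 2.88 and 3.07 CPM at 12 weeks. It too separated the ages, with 68-week replicate 4 the lowest, and had a log2 fold change of -0.53 ± 0.19 (unadjusted p = 0.0224). Isg15 ranged from 1.82 to 3.57 CPM at 68 weeks and from 2.56 to 3.56 CPM at 12 weeks (-0.38 ± 0.22), with its highest value in 68-week replicate 2. Ifit1 (-0.33 ± 0.17) and Ifit2 (-0.26 ± 0.14) overlapped between the ages and were highest in 12-week replicate 1.

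**Figure D2:**
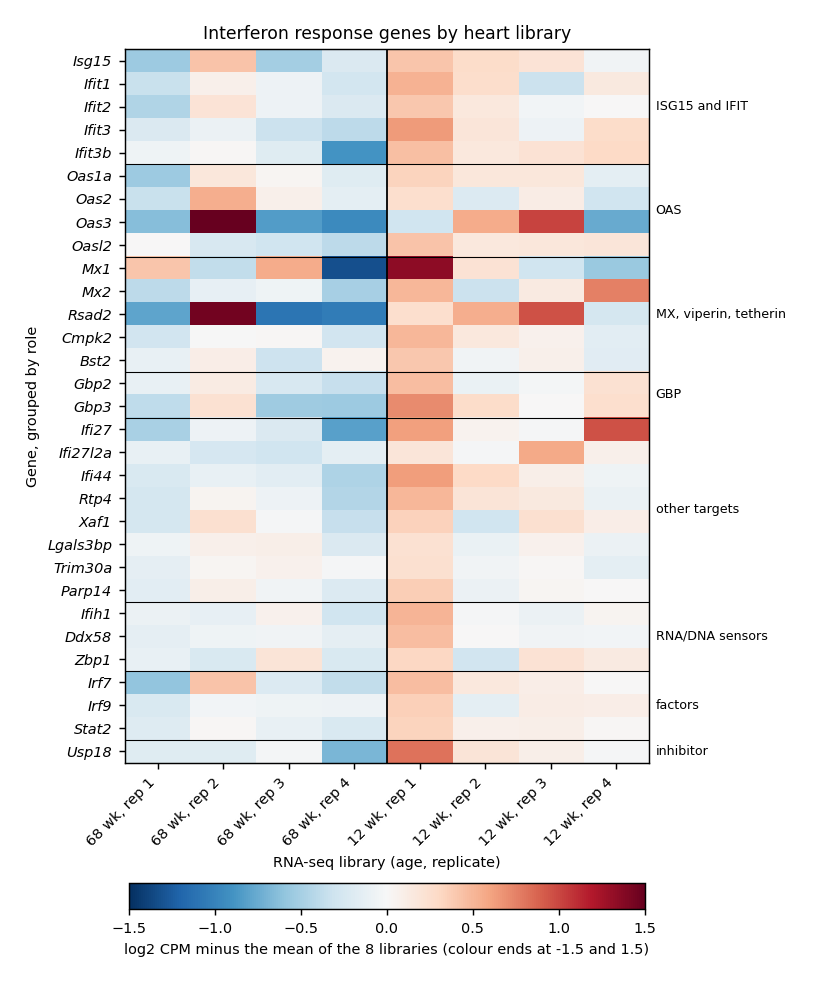
Level of each of the 31 genes in each library, as log2 CPM minus the mean of the gene over the 8 libraries, 68 weeks on the left and 12 weeks on the right, genes grouped by role. The column of 12-week replicate 1 is red in most rows and holds the highest of the 8 values for 24 of the 31 genes, and the column of 68-week replicate 2 is darkest for Rsad2 and Oas3.

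MX proteins are GTPases that block viral nucleocapsids, viperin (Rsad2) makes a chain-terminating nucleotide, the kinase gene Cmpk2 lies beside Rsad2, and tetherin (Bst2) holds budding virus at the cell surface. None of these 5 genes was called by edgeR, and the lowest unadjusted p among them was that of Mx2 (0.0422). Rsad2 (chromosome 12, 26442753 to 26456452) stood at 11.3, 53.4, 9.12 and 9.40 CPM at 68 weeks, against 23.2, 28.5, 37.8 and 16.2 CPM at 12 weeks. At 68 weeks replicate 2 was the highest of all 8 libraries and the other 3 were the lowest. With all libraries the log2 fold change was -0.35 ± 0.56 (adjusted p = 0.779, edgeR), and without 68-week replicate 2 it was -1.41 and was called (adjusted p = 0.0416). Cmpk2 (chromosome 12, 26469204 to 26479835), transcribed from the other strand, did not show this pattern, with 7.75, 9.44, 9.60 and 7.79 CPM at 68 weeks, against 13.3, 10.6, 9.94 and 8.48 CPM at 12 weeks (-0.30 ± 0.14). Mx2 stood at 0.927, 1.12, 1.16 and 0.863 CPM at 68 weeks, against 1.71, 0.970, 1.33 and 2.06 CPM at 12 weeks. Its ages overlapped, and its log2 fold change was -0.58 ± 0.25. Bst2, the highest of the group per length at 25.8 TPM over all libraries, stood at 9.31, 10.7, 8.09 and 10.4 CPM at 68 weeks, against 13.3, 9.62, 10.6 and 8.92 CPM at 12 weeks. Its ages overlapped (-0.14 ± 0.13). Mx1 had between 5 and 32 counts in a library, and its log2 fold change was -0.42 ± 0.50. The sign depended on 1 library, with 0.16 when 12-week replicate 1 was left out.

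The guanylate-binding proteins Gbp2 and Gbp3 are GTPases that coat vacuoles of intracellular pathogens and answer mostly to interferon-gamma. Gbp2 stood at 12.7, 15.03, 11.7 and 10.9 CPM at 68 weeks, against 19.03, 12.9, 13.5 and 16.2 CPM at 12 weeks. Gbp3 stood at 5.73, 8.76, 5.19 and 5.12 CPM at 68 weeks, against 12.2, 9.05, 7.49 and 8.92 CPM at 12 weeks. Both overlapped between the ages through 68-week replicate 2, and neither was called, with log2 fold changes of -0.30 ± 0.14 for Gbp2 and -0.61 ± 0.20 for Gbp3 (unadjusted p = 0.012).

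The 8 other targets all had log2 fold changes below 0, with a median of -0.29, and 0 were called by edgeR. Ifi27 and Ifi27l2a, which encode small mitochondrial or nuclear membrane proteins, were by length the 2 highest of the 31 genes, at 58.7 and 96.4 TPM over all libraries. Ifi27 (chromosome 12, 103434211 to 103440239) stood at 24.6, 32.7, 29.8 and 19.7 CPM at 68 weeks, against 52.9, 35.9, 34.01 and 66.8 CPM at 12 weeks. The ages did not overlap, and 12-week replicates 1 and 4 stood well above the rest. Its log2 fold change was -0.83 ± 0.23 (adjusted p = 0.0876, edgeR), the lowest of the 31. Its neighbour Ifi27l2a stood at 17.6, 16.1, 15.5 and 17.3 CPM at 68 weeks, against 21.7, 18.8, 28.4 and 20.1 CPM at 12 weeks. The ages did not overlap, the spread at 68 weeks was small, and the log2 fold change was -0.42 ± 0.12 (adjusted p = 0.0967, edgeR). DESeq2 called Ifi27l2a lower (adjusted p = 0.0281), and Ifi27 was called only when the filter on low counts was left out (adjusted p = 0.0342, edgeR). Ifi44 stood at 2.38, 2.60, 2.51 and 2.02 CPM at 68 weeks, against 4.33, 3.45, 2.97 and 2.67 CPM at 12 weeks. It separated the ages too (-0.50 ± 0.17, unadjusted p = 0.0149). Rtp4, which encodes a chaperone of receptors, stood at 4.17, 5.12, 4.74 and 3.69 CPM at 68 weeks, against 7.07, 5.71, 5.51 and 4.66 CPM at 12 weeks. Its ages overlapped through 68-week replicates 2 and 3 and 12-week replicate 4 (-0.38 ± 0.15, unadjusted p = 0.0292), and its span overlaps Masp1 and a predicted gene, 1 of them on the opposite strand, which leaves its count uncertain. Xaf1 (-0.20 ± 0.17), Parp14 (-0.17 ± 0.10), the galectin-3-binding protein gene Lgals3bp (-0.058 ± 0.090) and the ubiquitin ligase gene Trim30a (-0.034 ± 0.093) overlapped between the ages, and the last 2 lay within 0.1 of 0.

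Among the sensors, Ifih1 encodes MDA5 and Ddx58 encodes RIG-I, both receptors for viral RNA in the cytosol, and Zbp1 encodes a sensor of Z-form nucleic acid. Ddx58 stood at 13.3, 14.02, 14.1 and 13.3 CPM at 68 weeks, against 20.2, 14.7, 14.2 and 14.2 CPM at 12 weeks. The ages did not overlap, but 12-week replicate 1 stood apart and the other 3 libraries at 12 weeks lay within 1 CPM of the highest at 68 weeks. Log2 fold changes were -0.21 ± 0.11 for Ddx58, -0.24 ± 0.13 for Ifih1 and -0.20 ± 0.20 for Zbp1, and 0 of the 3 were called.

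Of the factors, Stat2 stood at 14.2, 16.4, 15.02 and 13.9 CPM at 68 weeks, against 20.6, 17.2, 17.3 and 16.5 CPM at 12 weeks. The ages did not overlap, with 68-week replicate 2 and 12-week replicate 4 almost level, and the log2 fold change was -0.27 ± 0.085 (unadjusted p = 0.0107). Irf9, the DNA-binding part of ISGF3, had -0.22 ± 0.10 (unadjusted p = 0.0586), and Irf7, which drives interferon genes themselves, had -0.33 ± 0.20. The span of Irf9 overlaps Rnf31 and that of Irf7 overlaps Phrf1, both well expressed, which leaves these 2 counts uncertain. Usp18 removes ISG15 from proteins and blocks signalling at IFNAR2, and stood at 3.05, 3.03, 3.38 and 2.14 CPM at 68 weeks, against 6.04, 3.95, 3.66 and 3.39 CPM at 12 weeks. The ages did not overlap, though they lay within 0.1 CPM of each other, and the log2 fold change was -0.56 ± 0.21 (unadjusted p = 0.0235).

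**Figure D3:**
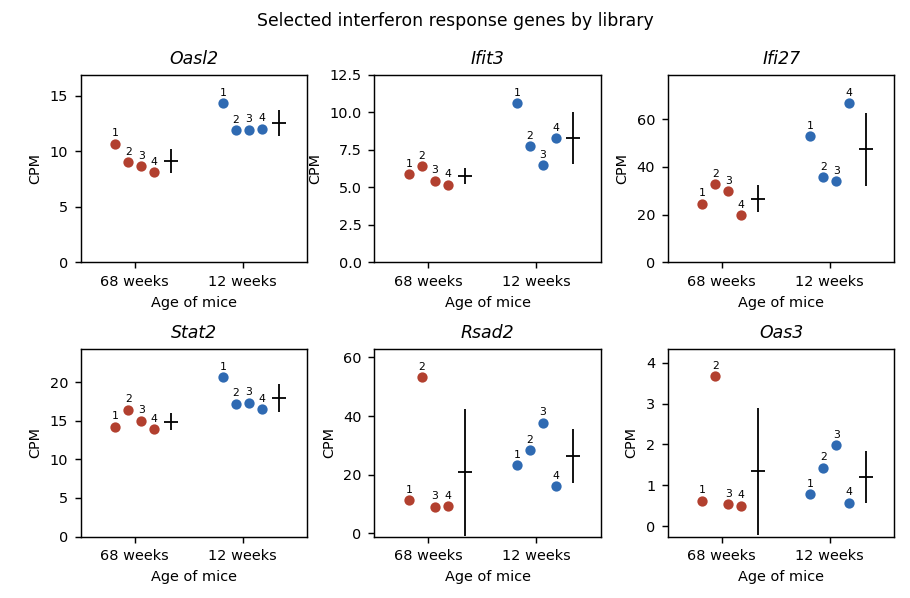
CPM of 6 genes in each library, with replicate numbers beside the points, 68 weeks left of 12 weeks; the black mark and bar are mean ± SD over 4 libraries. Oasl2, Ifit3, Ifi27 and Stat2 do not overlap between the ages, while Rsad2 and Oas3 have their highest value in 68-week replicate 2 (53.4 and 3.68 CPM).

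As a module, the 31 genes were summarised by the mean of their log2 CPM in each library, with no test, since the members were chosen with earlier results known. The module stood at 2.46, 2.85, 2.57 and 2.34 in 68-week replicates 1 to 4, against 3.15, 2.79, 2.84 and 2.74 in 12-week replicates 1 to 4. The ages overlapped, with 68-week replicate 2 above 3 of the 4 libraries at 12 weeks. The mean was 2.56 ± 0.22 at 68 weeks and 2.88 ± 0.18 at 12 weeks (SD, n = 4 each), a difference of -0.33. Without 68-week replicate 2 the difference was -0.43, and without 12-week replicate 1 it was -0.24.

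By length, the 31 genes summed to 274, 322, 286 and 256 TPM at 68 weeks, against 505, 353, 371 and 384 TPM at 12 weeks. These sums did not overlap, but Ifi27 and Ifi27l2a took 38.1% to 44.6% of them at 68 weeks and 43.8% to 52.9% at 12 weeks. Without these 2 genes the sums were 152, 200, 162 and 145 TPM at 68 weeks, against 283, 198, 188 and 181 TPM at 12 weeks, and 68-week replicate 2 again reached into the 12-week range.

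Single libraries stood out within each age. At 12 weeks, replicate 1 was the highest of that age in 26 of the 31 genes, and of all 8 libraries in 24, where it was the highest of 8 in 19.3% of all genes tested. At 68 weeks, replicate 2 was the highest of its age in 20 of the 31 and replicate 4 the lowest in 18, against 24.1% and 26.9% of all genes tested. Without 12-week replicate 1, 26 of the 31 fold changes were below 0, with a median of -0.18, and 7 genes had an unadjusted p under 0.05. Without 68-week replicate 2, 31 of the 31 were below 0, with a median of -0.39, and 17 had an unadjusted p under 0.05. With both of these libraries left out, a choice made after seeing the data, 29 of 31 were below 0, with a median of -0.28. In that fit 15 had an unadjusted p under 0.05 and 0 were called, where 63 of all genes were called higher and 23 lower.

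Transcripts of airway epithelium differed between the libraries and were set beside the module. Scgb1a1, which encodes the main secretory protein of airway club cells, stood at 0.196, 0, 102 and 0.0578 CPM of the total counts in 68-week replicates 1 to 4, against 351, 174, 135 and 6.02 CPM in 12-week replicates 1 to 4. In 68-week replicate 2 it had 0 counts, which at 3 counts allows a level of up to 0.104 CPM, for counting error only. The 12-week library with the highest module also had the most Scgb1a1, while the 68-week library with the highest module had none counted. The 68-week library with much Scgb1a1, replicate 3, had a module level of 2.57, inside the range of the other 3 at that age, and 12-week replicate 4, with little, had the lowest at 12 weeks. A pooled correlation is not given, because the libraries fall into separate groups by Scgb1a1.

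**Figure D4:**
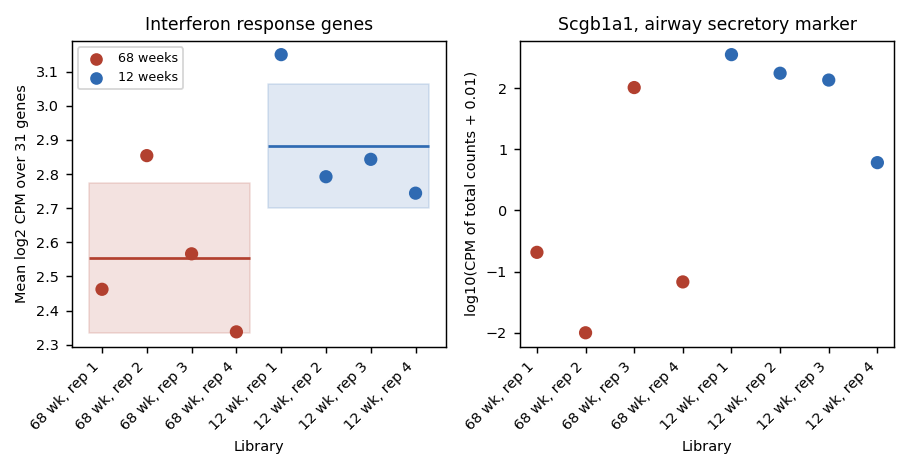
Left, mean log2 CPM over the 31 genes in each library, with the mean (line) and SD (band) of each age. Right, Scgb1a1 in the same libraries as log10 of CPM of the total counts plus 0.01, so that the library with 0 counts lies at -2; 68-week replicate 2 is high on the left and lowest on the right.

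Among the 4 libraries richest in airway transcripts, 1 at 68 weeks and 3 at 12 weeks, 28 of the 31 fold changes were below 0, with a median of -0.29. Among the 4 poorest in them, 3 at 68 weeks and 1 at 12 weeks, 24 of the 31 were below 0, with a median of -0.15. With Scgb1a1 as a covariate beside age, 26 were below 0 with a median of -0.21, and 5 had an unadjusted p under 0.05. Over all genes the number called lower went from 195 to 4 with this covariate, and 0 of the 31 were called. Oasl2 then stood at -0.45 on the log2 scale (adjusted p = 0.433, edgeR). It had -0.55 and -0.38 in the richest and the poorest 4, where a lone library stands for 1 of the ages, and these sets of 4 are given as values with no test.

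Of 80 markers of 12 cell types, 71 were tested, 8 fell at 68 weeks and 0 rose. Of 20 airway markers, 19 were tested, 19 had log2 fold changes below 0 and 0 were called, their sum running from 24.7 to 1109 CPM at 68 weeks and from 53.4 to 1886 CPM at 12 weeks, scaled to total counts like all marker sums. Cfap43, which hearts of both ages held at 24.3 ± 2.67 CPM at 68 weeks and 25.6 ± 2.37 CPM at 12 weeks (SD, n = 4 each), made up most of the lowest of these sums. The 5 endothelial markers, 0 of them called, summed to 570 to 667 CPM at 68 weeks and to 602 to 880 CPM at 12 weeks, with the highest sums of each age in 68-week replicate 2 and 12-week replicate 1. Of 9 macrophage markers, Cx3cr1 alone was called, and was lower at 68 weeks (log2 fold change -1.62 ± 0.22, adjusted p = 0.00738, edgeR). The median of the list was -0.032, with 7 markers below 0 and 2, Cd68 (0.19 ± 0.13) and Lyve1 (0.30 ± 0.14), above 0. The macrophage list summed to 216 to 245 CPM at 68 weeks and to 235 to 261 CPM at 12 weeks. The 4 markers of plasmacytoid dendritic cells, known as strong producers of interferon, summed to 2.496 to 3.92 CPM at 68 weeks and to 2.94 to 4.74 CPM at 12 weeks, and 0 of the 2 tested were called. Pacsin1 made up most of these sums, with means of 2.79 CPM at 68 weeks and 2.67 CPM at 12 weeks (0.067 ± 0.21). Siglech and Klk1 had at most 12 and 3 counts in a library and did not pass the filter. Of 5 fibroblast markers Col1a1 fell (-0.73 ± 0.16, adjusted p = 0.0427, edgeR), with means of 167 CPM at 68 weeks and 278 CPM at 12 weeks. Pdgfra (-0.25 ± 0.068) and Tcf21 (-0.046 ± 0.13) were below 0, Dcn (0.073 ± 0.068) and Lum (0.33 ± 0.12) were above 0, and none of these was called. The fibroblast list summed to 595 to 734 CPM at 68 weeks and to 745 to 869 CPM at 12 weeks, without overlap. This separation rested on Col1a1, and without it the sums of the ages overlapped. Of 8 T and NK cell markers 3 were tested and Trac fell (-1.04 ± 0.22, adjusted p = 0.0424, edgeR), on 15 to 44 counts in a library. Cd3e (0.46 ± 0.40) and Cd4 (-0.070 ± 0.33) were not called. The T and NK markers summed to 1.99 to 2.72 CPM at 68 weeks and to 2.503 to 4.03 CPM at 12 weeks. The 5 alveolar markers summed to 0.381 to 5.17 CPM at 68 weeks and to 4.15 to 14.2 CPM at 12 weeks, with 0 called. The 4 monocyte markers summed to 74.6 to 85.0 CPM at 68 weeks and to 65.8 to 88.3 CPM at 12 weeks, with 0 called. Most of the monocyte sums was Ace, with means of 81.1 CPM at 68 weeks and 75.6 CPM at 12 weeks (0.10 ± 0.081). The low-level monocyte markers Ly6c2 (-1.08 ± 0.45), Plac8 (-0.95 ± 0.49) and Chil3 (-2.03 ± 0.48) all lay below 0. Of 4 B cell markers 2 fell, with sums of 0.838 to 1.80 CPM at 68 weeks and 1.96 to 7.88 CPM at 12 weeks. Of 4 adipocyte markers 3 fell, with sums of 21.6 to 70.7 CPM at 68 weeks and 126 to 237 CPM at 12 weeks. Neutrophil markers summed to 3.02 to 6.00 CPM at 68 weeks and to 5.12 to 35.3 CPM at 12 weeks, with 0 of 5 called. All 5 had log2 fold changes below 0, from -2.34 to -1.26, and 1 of them did not overlap between the ages. Each of the 5 had an unadjusted p under 0.05 by edgeR, against 9.77% of all genes that were lower at that threshold. No marker of these lists was at 0 in all libraries. The 7 cardiomyocyte markers summed to 50843 to 53968 CPM at 68 weeks and to 44893 to 50858 CPM at 12 weeks. The part of these cells in the levels of the 31 genes was not tested.

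The rest of the pathway was read from lists of 110 genes, of which 107 were in the table under those names and 95 were tested. Of the 95, 1 rose and 2 fell at 68 weeks, with a median log2 fold change of -0.078. The 9 interferon genes listed, including Ifnb1, Ifna1 and Ifng, had at most 3 counts in any library, and none passed the filter. Of 9 receptors and kinases 0 were called and 6 had log2 fold changes below 0, with a median of -0.063. Values were -0.16 ± 0.075 for Ifnar1, -0.063 ± 0.051 for Ifnar2, -0.090 ± 0.049 for Jak1 and 0.019 ± 0.063 for Tyk2. The highest was Il10rb (0.18 ± 0.060), with every 68-week library above every 12-week library, as in 6.26% of all genes. Among 7 STAT and IRF factors, 0 were called, and log2 fold changes were 0.0040 ± 0.13 for Irf1 and -0.050 ± 0.055 for Irf3. Of 8 genes listed as inhibitors 0 were called, with a median of -0.043, from -0.45 ± 0.23 for Socs1 to 0.26 ± 0.083 for Irf2bp2. That list also held Isg20, which is by name an interferon-stimulated gene.

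Of 16 genes of sensing and its adaptors, 1 rose and 1 fell. Tlr3, an endosomal receptor for double-stranded RNA, stood at 13.4, 14.6, 15.1 and 14.3 CPM at 68 weeks, against 10.5, 9.59, 11.6 and 11.4 CPM at 12 weeks. It was higher at 68 weeks without overlap (0.41 ± 0.076, adjusted p = 0.028, edgeR), and 7 of 16 such alternatives kept the call. Leaving out each library in turn gave an adjusted p by edgeR of 0.0373 to 0.0683 for Tlr3, with 3 of 8 called. Tlr9, a receptor for unmethylated DNA, stood at 1.03, 1.01, 0.999 and 0.803 CPM at 68 weeks, against 1.65, 1.76, 1.89 and 1.52 CPM at 12 weeks. It was lower without overlap (-0.83 ± 0.17, adjusted p = 0.0354, edgeR), and 4 of 16 kept the call. Leaving out each library in turn gave 0.0486 to 0.0988 for Tlr9, with 1 of 8 called. For both receptors the direction was the same in 16 of 16.

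Of 42 other type I targets, 0 were called and 33 had log2 fold changes below 0, with a median of -0.082. Eif2ak2, which encodes the kinase PKR, had 0.032 ± 0.065, and Ifitm3, which encodes a block to virus entry, had -0.034 ± 0.055. Of 13 GTPase genes that answer mostly to interferon-gamma, 13 had log2 fold changes below 0, with a median of -0.33, and 1 fell. This was Iigp1, an immunity-related GTPase gene, at 33.6, 32.01, 29.04 and 18.03 CPM at 68 weeks, against 66.1, 61.4, 66.8 and 70.04 CPM at 12 weeks. Every 68-week library was below every 12-week library, and the log2 fold change was -1.23 ± 0.16 (adjusted p = 0.00738, edgeR). It was called in 15 of 16 such alternatives, including each of the 8 without 1 library, and the log2 fold change ran from -1.33 to -1.06 over the 16. With Scgb1a1 as a covariate it was -1.22, about as large as without it, but was not called (adjusted p = 0.109, edgeR). It was -1.16 and -1.33 among the 4 libraries richest and poorest in airway transcripts.

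**Figure D5:**
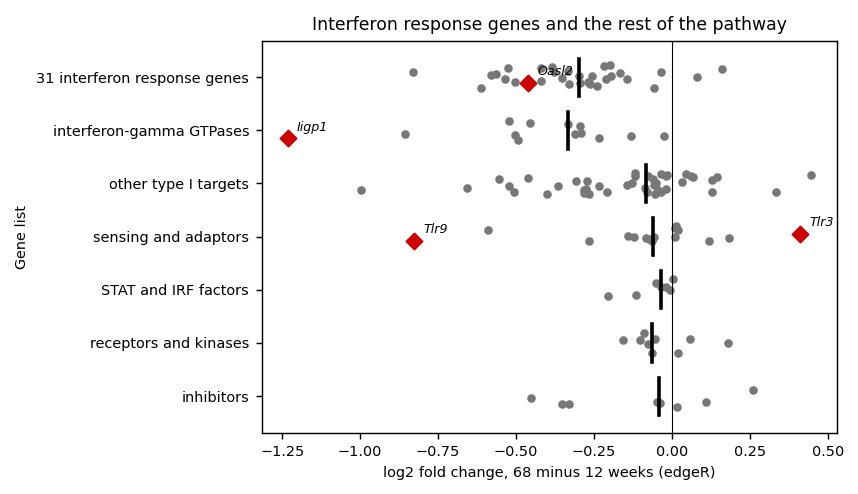
Log2 fold change, 68 minus 12 weeks, of the 31 interferon response genes and of the tested genes of 6 other lists of the pathway; each point is a gene, the black bar is the median of its list and red diamonds are genes called by edgeR. Medians lie at -0.30 and -0.33 for the top 2 lists and between -0.082 and -0.034 for the others.

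The authors' lists of H3K27me3 regions name every region as unique to its age, so they hold only differences between the ages. In them, 0 of the 31 genes was linked to a region in the 68-week list or in the 12-week list, where 3.46% and 1.44% of all tested genes were linked. Of the other pathway genes, Aim2, which encodes a sensor of cytosolic DNA, was linked to 2 regions in the 68-week list, with the authors' enrichment scores of 4.88 and 3.85. As numbered, both regions lie outside the span of Aim2, though the build of their positions is not established. The RNA of Aim2 had a log2 fold change of 0.011 ± 0.28. These scores come without replicate values, and no error can be set beside them.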

How the data were processed

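RNA-seq of hearts at 68 and 12 weeks, 4 libraries each, was deposited as raw counts of reads per gene, per the file headers. Trimmomatic 0.36, STAR 2.5.2b, featureCounts of Subread 1.5.2, DESeq2 and mm10 are named in the submitters' processing notes, without role or order, and whether strand was used is not given in the sources used here. Deposited region lists give an enrichment score per region, with no scale, per the file headers. Library totals were 28842059 to 34599121 counts at 68 weeks and 23599296 to 31662601 at 12 weeks.

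Genes were tested with edgeR 4.0.16 (quasi-likelihood test, TMM, filterByExpr, Benjamini-Hochberg over 15947 genes, adjusted p of 0.05) in R 4.3.3, with age alone in the model. The SE is approximate, from the size of the fold change on the log2 scale over the root of F. Log2 CPM used a prior count of 2. TPM was computed from the counts and the gene lengths deposited beside them. The test was tried on simulated data. No pair of libraries of the same age was a repeat of 1 library (lowest chi-square per degree of freedom 17.3).

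The members, lists and alternatives were chosen with earlier results of these data known. All members are accounted for. Values in all libraries are given for members called, with an unadjusted p under 0.05, or highest per length in their role group, and for other pathway genes called; 10 further pathway genes were listed by name, of which 1 is not reported here, and Oas3, Rsad2, Cmpk2 and Aim2 were chosen after their values were seen. Alternatives were library size alone, DESeq2 1.42.0 and its size factors, no filter, a replicate block, airway covariates (log2 CPM with 0.1 added), 4 libraries by airway counts and leaving out each library.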

Additional observations from a re-analysis of the deposited data

Results flagged for a closer look

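Within each age, 64 sets of 4 values (31 genes and the module at 2 ages) were examined for a library far from the other 3, by the gap to its neighbour over the range. Chance gives about 1 in 20 such sets, and 5 were found. At 68 weeks replicate 2 stood apart for Oas3 (3.68 CPM, the next at 0.629), Rsad2 (53.4 CPM, the next at 11.3) and Gbp3 (8.76 CPM, the next at 5.73). At 12 weeks replicate 1 stood apart for Oasl2 (14.3 CPM, the next at 12.1) and Ddx58 (20.2 CPM, the next at 14.7). All 5 lay above the other libraries of their age. Causes were not tested.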

How the results depend on the processing

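The module difference stayed below 0 in the 15 alternatives run for it, at -0.38 with library size alone, -0.33 with a prior count of 0.5, -0.32 without 3 genes with close paralogs, -0.44 as a median, -0.36 and -0.19 in the 4 libraries with the most and the fewest airway counts, -0.43 to -0.24 without 1 library, and -0.34 without both libraries that stood out. Genes below 0 numbered 24 to 31, and 0 were called higher throughout. Genes called lower numbered 1 with library size alone, with DESeq2 size factors and with a replicate block, 3 with DESeq2, 2 with no filter, 0 with the summed airway markers or Scgb1a1 as covariate, 0 in either set of 4 libraries (1 against 3, where few genes of any kind were called and a lost call says nothing of stability), 0 to 1 without 1 library and 0 without 12-week replicate 1 and 68-week replicate 2, a choice made after seeing the data. Over all genes, 256 were higher and 195 lower, with 4 higher and 1 lower in the libraries with most airway counts, 10 and 23 in those with fewest, 29 and 4 with Scgb1a1, 77 and 25 with the airway markers, 564 and 436 with DESeq2, 322 and 271 with no filter, 176 and 248 with library size alone, 63 and 23 without those 2 libraries, and 117 to 209 and 52 to 154 without 1 library. The replicate block gave 112 and 48. The numbers were not seen to pair the samples. Correlations of same-numbered deviations were -0.24, -0.041, 0.041 and 0.33, and only for replicate 4 was the best match its own number. Low correlations cannot exclude that same-numbered libraries were handled together. The cause of these shifts was not tested.

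Signs of single genes turned only for genes called in no fit, except Rsad2, which was called without 68-week replicate 2. Oas3 was -0.18 with the block, -0.22 with airway markers, -0.78 with Scgb1a1, -1.32 in the libraries with most airway counts, -1.23 without the 2 libraries, and -1.07 to 0.50 without 1. Oas2 was -0.0029 without the 2 libraries and -0.11 to 0.19 without 1. Mx1 was 0.23 with airway markers, 0.45 with Scgb1a1, 0.28 in the libraries with fewest airway counts, 0.26 without the 2 libraries, and -0.68 to 0.16 without 1. In the libraries with fewest airway counts Rsad2 was 0.60, Bst2 0.19 and Jak1 0.019. Lgals3bp was 0.043 with airway markers, 0.076 with Scgb1a1, 0.026 and 0.017 in the libraries with fewest and most airway counts, and -0.099 to 0.017 without 1. Trim30a was 0.074 with airway markers, 0.097 with Scgb1a1, 0.11 in the libraries with fewest, 0.037 without the 2 libraries, and -0.086 to 0.051 without 1. Zbp1 was 0.015 with Scgb1a1 and 0.087 in the libraries with most airway counts, and Socs1 0.016 and 0.064. Tyk2 was -0.038 with library size alone, -0.043 in the libraries with fewest airway counts, and -0.016 to 0.052 without 1. Irf1 was -0.061 with library size alone and -0.064 to 0.15 without 1, Eif2ak2 -0.028 and -0.0052 to 0.078, and Ifitm3 -0.066 to 0.0037 without 1, while without the 2 libraries Eif2ak2 was 0.093 and Ifitm3 -0.084. Mx1 had the fewest counts of the 31 genes, and the part of depth in its error was not tested.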
